A study of Mus musculus with 15 samples.

Results

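Cadherins and protocadherins are the adhesion proteins treated here, taken as the 96 of 22063 gene rows of the deposited count table whose symbol is Cdh followed by a number or begins with Pcdh. Their mRNA was measured by RNA sequencing in primary mouse embryonic fibroblasts of strain C57Bl/6 at passage 2, connective tissue cells grown out of embryos. Cells were electroporated with a plasmid for Crxos, Oboxa1 (earlier Obox6), Oboxa4 (earlier Obox1), Oboxa7 (Gm8053) or no insert (Control), and collected after 48 h by sorting for the GFP that every plasmid co-expresses, with 3 libraries for each of the 5 conditions. Crxos and the Obox genes encode divergent homeodomain proteins that are normally made in the early embryo. Each was driven by a constitutive CMV promoter and carried a C-terminal V5 tag, so the fibroblasts are a setting for forced expression, not a cell type in which these proteins normally act. Whether libraries sharing a condition were grown as separate cultures is not stated, and p-values therefore measure only the spread between these libraries, which may be technical.

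Cadherins bind the cadherin of a neighbouring cell through calcium-dependent extracellular repeats. Type I cadherins (E-, P-, N-, R- and M-cadherin) and type II cadherins (such as OB-cadherin and VE-cadherin) hold the actin cytoskeleton through β-catenin and α-catenin at the inner face of the membrane, and mesenchymal cells such as fibroblasts are known for N-cadherin and OB-cadherin in place of the E-cadherin of epithelium. Protocadherins lack the catenin-binding tail. The non-clustered protocadherins (delta-1 and delta-2) are genes of their own, whereas the alpha, beta and gamma protocadherins stand in a row on a single chromosome, each variable exon with its own promoter, and in neurons a cell makes its own choice among them.

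Of the 96 genes, 68 had enough counts to be tested and 28 had not. Of these 28, 6 were silent, with 0 counts in all 15 libraries, namely Pcdha1, Pcdha6, Pcdhb1 and the rows Pcdha4-g, Pcdha6-g and Pcdha7-g, and the other 22 reached at most 16 counts in any library. All 5 type I cadherins were tested, with 8 of 13 type II cadherins, 4 of 5 other cadherins, all 4 delta-1, 4 of 5 delta-2 and 2 of 3 other non-clustered protocadherins, 17 of 22 beta and all 22 gamma protocadherins. In the alpha cluster 2 of 17 rows were tested (Pcdhac2 and Pcdha12), 5 rows were silent and 10 held at most 11 counts in a library.

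Libraries held 28440415 to 42778823 counts each. The transfected genes identified their libraries, with 5586 to 12033 reads of Crxos, 2009 to 5956 of Obox6, 2338 to 3712 of Obox1 and 2227 to 3899 of Gm8053 in the libraries so labelled, at most 34 of any of them in another transfected library and 0 in Control libraries. Principal component 1 of the 1000 most variable genes (50.3% of their variance) set 5 libraries apart from 10, namely all 3 of Crxos together with replicate 3 of Oboxa1 and replicate 1 of Control, and the same split was found with the 96 genes left out. The labels name no batch and no date. The paper's methods describe a matching of the experimental work by date, meant to limit variation between days. Which libraries share a date cannot be read from the labels, so no fit here has a term for date. Whether the split or the replicate numbers follow date was not tested. Crxos has no library in the set of 10, and only Oboxa1 and Control have libraries in both sets, so the difference between Crxos and the rest of the set of 5 rests on Oboxa1 replicate 3 and Control replicate 1. Values from a fit that compares conditions within a set are therefore given beside those of the fit over all libraries, and there Crxos is set against Control replicate 1 alone. Fibroblast markers were high throughout and above Control in every transfected library (summed CPM, which are counts scaled to a fixed library total, of 8 genes: 23447 to 27514 after Crxos, 24636 to 25939 after Oboxa1, 24667 to 26090 after Oboxa4 and 19993 to 23989 after Oboxa7, against 17991 to 19246 in Control). Most of this sum is Col1a1 and Col1a2, and after Oboxa7 only 2 of the 8 genes were called higher. Vim was called lower after Crxos (4962, 5001 and 4979 CPM, against 5564, 6550 and 6668 CPM in Control), though not within the set, and Pdgfra lower after Oboxa7 (199, 184 and 208 CPM, against 270.3, 292 and 299 CPM in Control). Markers of epithelium summed to 15.2 to 42.4 CPM in the set of 5, against 32.4 to 79.8 CPM in the set of 10, with Esrp1 at 0 in all libraries. Markers of neurons summed to 89.9 to 95.4 CPM in the set of 5, against 144.7 to 170.7 CPM in the set of 10, a difference carried by Stmn2 and Map2, while Tubb3 was higher in the set of 5 (21.3 to 32.9 against 12.7 to 18 CPM), with Rbfox3, a defining neuronal gene, at no more than 2 counts. Endothelial markers summed to 9.34 to 24.2 CPM, with Cldn5 at no more than 1 count, myoblast markers to 7.80 to 24.7 CPM, with Myod1 at no more than 3 counts, and macrophage markers to 5.59 to 9.91 CPM. The part of these differences in the results below was not tested. In such bulk samples, fewer cells of a type and less RNA per cell cannot be told apart.

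Levels between genes were compared as RPKM (CPM divided by the deposited gene length in kilobases, mean over 15 libraries). Cdh11 (OB-cadherin of mesenchyme) was highest by far at 130.0 RPKM. It was followed by Pcdhgc3 (43.9), Cdh13 (23.9), Pcdh7 (23.8), Pcdh18 (23.1), Pcdh19 (21.4), Cdh3 (20.2) and Cdh2 (20.1), and then, at a distance, by Cdh18 (5.75) and Pcdh9 (5.44). In Control libraries alone the order after Cdh11 (97.1 ± 24.7 RPKM, mean ± SD, n = 3) and Pcdhgc3 (41 ± 0.276) was Pcdh7 (29.4 ± 5.13), Cdh13 (26 ± 9.44), Cdh2 (24.6 ± 2.23), Pcdh19 (22.8 ± 1.16), Pcdh18 (16.3 ± 1.15) and Cdh3 (11.6 ± 3.15), of which the neighbours Pcdh7, Cdh13, Cdh2 and Pcdh19 did not differ beyond their spread. E-cadherin (Cdh1) averaged 0.0524 RPKM and VE-cadherin (Cdh5) 0.0593 RPKM. Genes of the alpha and gamma clusters share their last exons with their neighbours. In GENCODE, a gamma gene shares a median of 44.8% of its exon bases and an alpha gene 53.5%, whereas 20 of 22 beta genes share none. Pcdhac2 held 205 to 1066 counts per library while Pcdha1 and Pcdha6, with the same last exons, held 0, so the deposited counts do not give shared reads to every gene, and RPKM over the full length understates alpha and gamma genes. How the counting treated such reads is not given in the sources used here, so the split of reads among them is uncertain.

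**Figure D1:**
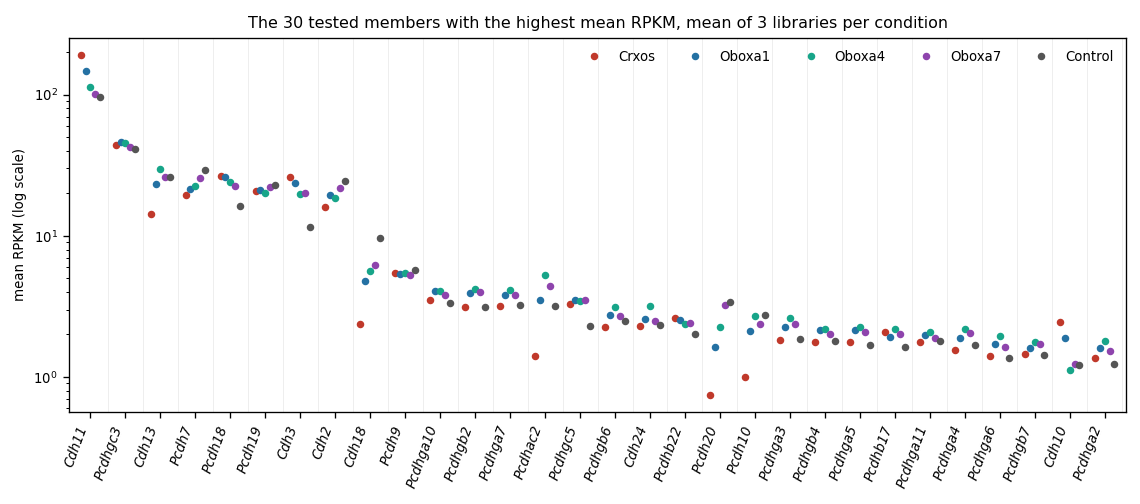
Mean RPKM (log scale) of the 30 cadherin and protocadherin genes with the highest mean, with 1 point per condition (mean of 3 libraries; from left to right Crxos, Oboxa1, Oboxa4, Oboxa7 and Control). Cdh11 stands above all others at a mean of 130.0 RPKM over all libraries, Cdh3 and Pcdh18 have their lowest point in Control, and Cdh18, Pcdh20, Pcdh10 and Cdh13 have theirs after Crxos.

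The first question was which of these genes each transfected gene changed. A gene was called where edgeR's quasi-likelihood test gave a Benjamini-Hochberg adjusted p below 0.05 over all 14012 genes tested and the higher mean exceeded the lower by more than 25%. After Crxos, 10 of the 68 tested members were higher and 10 lower than in Control (14.7% each, where 8.38% of all genes were called higher and 8.4% lower). After Oboxa1, 7 were higher and 2 lower (10.3% and 2.94%, where 4.25% of all genes were called higher and 3.28% lower). After Oboxa4, 18 were higher and 5 lower (26.5% and 7.35%, where 8.06% of all genes were called higher and 5.83% lower). After Oboxa7, 5 were higher and 1 was lower (7.35% and 1.47%, where 3.33% of all genes were called higher and 2.34% lower). The median log2 fold change of the 68 was 0.05, 0.25, 0.32 and 0.23 after Crxos, Oboxa1, Oboxa4 and Oboxa7, and that of all genes tested was between −0.0013 and 0.0026. Within sets the median of the 68 was 0.24, 0.26, 0.26 and 0.15 in the same order. All 4 comparisons use the same 3 Control libraries, so agreement between them is not independent. With conditions compared within a set, 6 members were higher and 4 lower after Crxos (where 6.39% of all genes were called higher and 5.7% lower), 15 and 8 after Oboxa1 (8.91% and 5.74% of all genes), 15 and 11 after Oboxa4 (12.7% and 7.71%), and 6 and 7 after Oboxa7 (7.62% and 4.3%). With only Oboxa1 and Control in the model, Pcdh18 alone of the 9 members called after Oboxa1 kept its call.

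**Figure D2:**
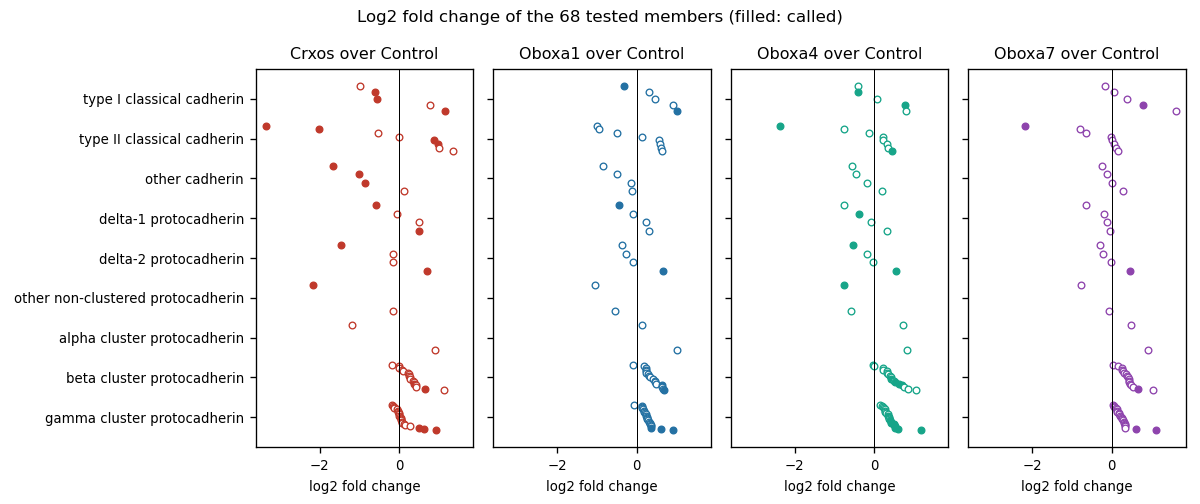
Log2 fold change against Control of each of the 68 tested genes (1 point per gene, grouped by subfamily, a panel for each transfected gene; filled points are called). Filled points lie on both sides of 0 after Crxos (10 higher, 10 lower), and mostly above 0 after Oboxa4 (18 higher, 5 lower), where 11 of them are gamma protocadherins.

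In the fit over all libraries, the same 5 genes were called higher after all 4 transfected genes. They were the type I cadherin Cdh3, the delta-2 protocadherin Pcdh18 and the clustered Pcdhgc4, Pcdhgc5 and Pcdhb18. Within the set of 5, the calls of Pcdhgc4 and Pcdhb18 after Crxos were lost. Cdh2, the type I cadherin of mesenchyme, and the delta-1 protocadherin Pcdh7 were lower after Crxos, Oboxa1 and Oboxa4 in the fit over all libraries. These genes are given first, followed by the rest of each family.

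Among type I cadherins, Cdh3 (P-cadherin, a cadherin of basal epithelium and placenta) lies at chromosome 8, 106510852 to 106556911 (GRCm38.p6). It had 89.4, 112 and 114 CPM in Crxos libraries, 99.5, 79.5 and 106 in Oboxa1 libraries, 79, 84.3 and 76.3 in Oboxa4 libraries and 85.3, 88.5 and 71.2 in Oboxa7 libraries, against 61.5, 41.9 and 37.6 CPM in Control libraries. Every transfected library lay above every Control library, the highest Control value being that of replicate 1. The log2 fold changes were 1.16 ± 0.16 after Crxos, 1.01 after Oboxa1, 0.77 after Oboxa4 and 0.80 after Oboxa7 (standard error 0.16), with adjusted p of 0.000545, 0.00254, 0.00582 and 0.011 by edgeR's quasi-likelihood test. Within sets they were 0.77, 1.04, 1.01 and 1.04, all called. With only the groups compared in the model, the Oboxa1 call was lost, at 1.02. The call after Oboxa7 was lost without Oboxa7 replicate 1, Oboxa7 replicate 2 or Control replicate 3, with log2 fold changes between 0.66 and 1.04 over the 15 fits that each leave out a library, the range that is also given for the calls that follow.

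Cdh2 (N-cadherin), on chromosome 18, 16588877 to 16809246, went the other way. It had 168, 146 and 156 CPM after Crxos, 197, 206 and 170.1 after Oboxa1, 193, 166 and 183 after Oboxa4 and 208, 201 and 234 after Oboxa7, against 216, 248 and 257 CPM in Control. All libraries of Crxos, Oboxa1 and Oboxa4 were below all Control libraries, and those of Oboxa7 overlapped them. The log2 fold changes were −0.62, −0.33 and −0.41 (adjusted p = 0.000698, 0.0336 and 0.0071, edgeR), and −0.17 after Oboxa7, which was not called (adjusted p = 0.272). The Oboxa1 call was lost when Oboxa1 replicate 1 or 3 or Control replicate 2 or 3 was left out, with log2 fold changes between −0.40 and −0.25, and also with only the groups compared in the model (−0.32). Per length, Cdh3 stood at 26 ± 3.38 RPKM and Cdh2 at 16 ± 1.14 RPKM after Crxos (mean ± SD, n = 3), against 11.6 ± 3.15 and 24.6 ± 2.23 RPKM in Control, so the order of these levels was reversed. Cdh3 also had the higher mean after Oboxa1 (23.5 ± 3.4 and 19.6 ± 1.92 RPKM) and Oboxa4 (19.8 ± 1 and 18.5 ± 1.37 RPKM), and the lower mean after Oboxa7 (20.2 ± 2.28 and 21.9 ± 1.78 RPKM). For each Obox gene the ranges of mean ± SD overlapped.

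The other type I cadherins were low. Cdh4 (R-cadherin) had 1.59, 1.9 and 1.61 CPM after Crxos against 2.08, 2.56 and 2.83 CPM in Control and was called lower at the edge of the threshold (log2 fold change −0.55, adjusted p = 0.0473, edgeR). That call was lost under 5 of 7 alternative settings, and the within-set value was −0.29. Within sets Cdh4 was called higher after Oboxa1 (0.46, adjusted p = 0.0326, edgeR). Cdh1 (E-cadherin) held 3, 3 and 1 counts after Crxos, 13, 6 and 7 after Oboxa1, 9, 15 and 2 after Oboxa4 and 21, 12 and 15 after Oboxa7, against 2, 9 and 3 counts in Control. It was called in none of the 4 comparisons, and the nearest to a call was Oboxa7 (log2 fold change 1.61 ± 0.58, adjusted p = 0.0972, edgeR), in which all 3 libraries were above all Control libraries. The epithelial markers Epcam (1.91, adjusted p = 0.00376, edgeR) and Krt8 (1.87, adjusted p = 0.0194) were called higher after Oboxa7, at no more than 33 and 41 counts in a library. The summed epithelial markers were at 47.3 to 59.7 CPM after Oboxa7 against 42.4 to 79.8 CPM in Control. Most of that sum was Krt19 (36.5, 42.4 and 45.6 against 37.6, 50.9 and 65.6 CPM in Control) and Krt18 (8.66, 9.99 and 11.8 against 3.99, 11.1 and 13.3 CPM), which overlapped Control. Within sets, 2 of the 6 tested epithelial markers were called higher and 1 lower after Oboxa7. Cdh15 (M-cadherin of muscle precursors) had 0.839, 1.02 and 1.38 CPM after Crxos against 1.13, 0.412 and 0.321 CPM in Control and was not called (adjusted p = 0.223, edgeR). Summed myoblast markers were at 22.4 to 24.7 CPM after Crxos against 7.80 to 11.6 CPM in Control. Most of this sum was Des (18.7, 20.8 and 18.6 CPM after Crxos, against 6.44, 6.56 and 5.55 CPM in Control). Chrna1 overlapped Control (2.77, 2.77 and 3.19 against 4.07, 1.79 and 1.93 CPM). Myod1, Myf5, Myog and Pax7 held at most 3 counts in a library.

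**Figure D3:**
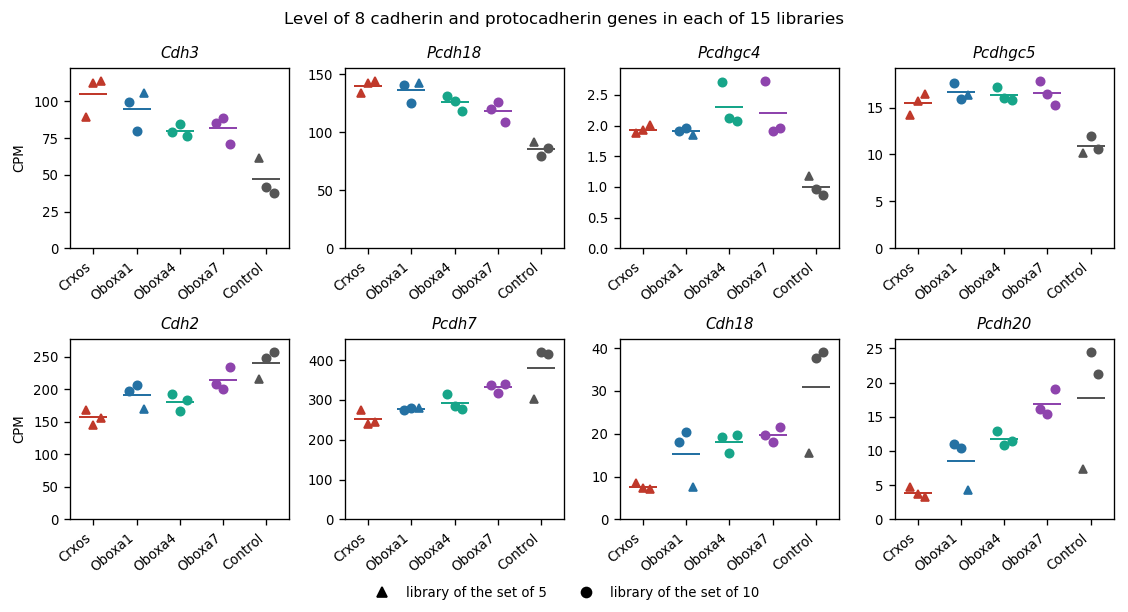
CPM of 8 genes in each library (points; triangles mark the set of 5 libraries, circles the set of 10; horizontal lines are means of 3 libraries), with the transfected genes to the left of Control. Cdh3, Pcdh18, Pcdhgc4 and Pcdhgc5 have every transfected point above every Control point, and Cdh18 and Pcdh20 have a triangle in Oboxa1 and in Control far below the circles of the same condition.

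Type II cadherins were led by Cdh11 (OB-cadherin), on chromosome 8, 102632095 to 102785493. It had 1139, 1134 and 1169.9 CPM in Crxos libraries, 757, 662 and 1202 in Oboxa1, 688, 702 and 641 in Oboxa4 and 612, 638 and 555 in Oboxa7 libraries, against 749, 510.4 and 478 CPM in Control. The highest value of Oboxa1 (replicate 3) and that of Control (replicate 1) are from the set of 5. It was called after Crxos (log2 fold change 0.99 ± 0.19, adjusted p = 0.00321, edgeR), also without any 1 library, and in no Obox comparison (0.59, 0.23 and 0.05, adjusted p = 0.0589, 0.414 and 0.885). Within sets the values were 0.62 after Crxos, 0.57 after Oboxa1 and 0.45 after Oboxa4, all called, and 0.28 after Oboxa7, which was under the fold limit.

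Cdh18, a type II cadherin known from the nervous system, moved in the opposite direction. Its CPM was 8.39, 7.43 and 7.07 after Crxos, 18.1, 20.3 and 7.62 after Oboxa1, 19.2, 15.5 and 19.6 after Oboxa4 and 19.8, 18.1 and 21.5 after Oboxa7, against 15.6, 37.8 and 39.1 in Control. Oboxa1 replicate 3 and Control replicate 1 again stood apart from the other 2 libraries of their condition, both on the low side. Cdh18 was lower after Crxos (log2 fold change −2.01 ± 0.34, adjusted p = 0.00154, edgeR) and not called after the Obox genes (−1.0, −0.77 and −0.64). Within sets it was lower by nearly the same amount after all 4 genes, at −1.02, −1.01, −1.09 and −0.95 (adjusted p = 8.79e-05, 5.07e-07, 2.92e-07 and 2.9e-06, edgeR).

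Cdh6 (K-cadherin, known from kidney) had 12.6, 10.6 and 11 CPM after Crxos against 8.49, 5 and 5.14 CPM in Control and was called higher (log2 fold change 0.87, adjusted p = 0.0138, edgeR). Within the set of 5 its value was 0.43 and was not called (adjusted p = 0.107), and the call was also lost without Crxos replicate 1, Control replicate 2 or Control replicate 3, at log2 fold changes between 0.74 and 1.17. Within sets Cdh6 was called higher after Oboxa1 (0.67, adjusted p = 0.00091) and Oboxa4 (0.61, adjusted p = 0.00484), and DESeq2 also called it after Oboxa1. Cdh24 was higher after Oboxa4, with 10.8, 8.57 and 9.13 CPM against 6.99, 6.71 and 7 CPM in Control (log2 fold change 0.46 ± 0.12, adjusted p = 0.0134, edgeR), a call lost without Oboxa4 replicate 1, where the log2 fold change was 0.37. Cdh5 (VE-cadherin of endothelium) was near the limit of detection, with 4, 0 and 5 counts after Oboxa4 and 3, 2 and 6 after Oboxa7, against 20, 12 and 14 counts in Control. Both were called lower (log2 fold change −2.37 ± 0.55 and −2.18 ± 0.52, adjusted p = 0.00832 and 0.0217, edgeR). DESeq2 did not call it after Oboxa4, and the Oboxa7 call was lost without Oboxa7 replicate 1 or 2 or Control replicate 1 or 3 (log2 fold changes between −2.59 and −1.97). The endothelial genes Cldn5, Pecam1, Emcn and Tie1 held at most 21 counts in any library, and the endothelial markers summed to 10.5 to 15.9 CPM after Oboxa4 and 15.8 to 19 CPM after Oboxa7, against 13.2 to 24.2 CPM in Control.

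Cdh12, a type II cadherin of brain, held 1, 3 and 1 counts after Crxos, 9, 25 and 3 after Oboxa1, 17, 28 and 28 after Oboxa4 and 18, 16 and 34 after Oboxa7, against 1, 37 and 16 counts in Control. It was called lower after Crxos (adjusted p = 0.0374, edgeR), while Control replicate 1 held as few counts as the Crxos libraries. Without Crxos replicate 1, 2 or 3 or Control replicate 2 or 3 the call was lost, with log2 fold changes between −4.01 and −2.32, and the sign turned within the set of 5.

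Of the cadherins outside these types, Cdh13 (T-cadherin, held in the membrane by a lipid anchor and without a cytoplasmic tail) lies on chromosome 8, 118140017 to 119324929. Its values were 57.7, 56.2 and 60.4 CPM after Crxos, 118, 117 and 50.3 after Oboxa1, 121, 122 and 121 after Oboxa4 and 108, 107 and 101 after Oboxa7, against 61.6, 127 and 129 CPM in Control. The call after Crxos (log2 fold change −0.87, adjusted p = 0.0399, edgeR) was lost in the within-set fit, where the value was −0.09 (adjusted p = 0.407), and in 11 of the 15 fits that leave out a library, with log2 fold changes between −1.14 and −0.70. It was also lost with only Crxos and Control in the model (−0.86). The 11 fits leave out any library of Crxos, Oboxa4 or Oboxa7, or Control replicate 2 or 3. Cdh17 (LI-cadherin of liver and intestine) had 2.6, 2.27 and 2.93 CPM after Crxos against 4.27, 4.94 and 6.42 CPM in Control and remained called within the set (log2 fold change −1.0, adjusted p = 0.00417, edgeR; within the set −0.72, adjusted p = 0.0256), and within sets it was also called lower after Oboxa1 (−0.52). Cdh26 had 0.923, 0.933 and 1.09 CPM after Crxos against 1.36, 3.88 and 4.01 CPM in Control, with a log2 fold change of −1.65 (adjusted p = 0.0145, edgeR) that was −0.47 and not called within the set. That call was also lost without Crxos replicate 1 or 2 or Control replicate 2 or 3 (log2 fold changes between −2.01 and −1.42). Within sets Cdh26 was instead called lower after the Obox genes, at −0.91, −0.80 and −0.47 (adjusted p = 0.000774, 0.000898 and 0.0388, edgeR).

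Delta-2 protocadherins have a cytoplasmic tail that binds the WAVE complex, a regulator of actin. Pcdh18, on chromosome 3, 49743291 to 49757383, was called higher after all 4 transfected genes, also under each of the 7 alternative settings and without any 1 library. For this gene, and for Pcdh10 and Pcdh20, which follow, the bases before the annotated start of the gene are printed because these 3 genes show the opposed patterns, Pcdh18 higher in every transfected library and the others low in the set of 5. Sequences are those of RefSeq on GRCm38.p6, on the strand of the gene and read toward its start, with CCAAT or its reverse complement ATTGG, a common promoter element, in capitals. They are chr3:49757384-49757566 (minus strand, 183 bases), chr3:45378148-45378397 (plus strand, 250 bases) and chr14:88471397-88471646 (minus strand, 250 bases).
Pcdh18: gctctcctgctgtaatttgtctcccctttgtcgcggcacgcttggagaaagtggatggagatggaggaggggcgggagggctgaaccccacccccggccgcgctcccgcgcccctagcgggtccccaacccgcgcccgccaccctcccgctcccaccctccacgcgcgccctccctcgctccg
Pcdh10: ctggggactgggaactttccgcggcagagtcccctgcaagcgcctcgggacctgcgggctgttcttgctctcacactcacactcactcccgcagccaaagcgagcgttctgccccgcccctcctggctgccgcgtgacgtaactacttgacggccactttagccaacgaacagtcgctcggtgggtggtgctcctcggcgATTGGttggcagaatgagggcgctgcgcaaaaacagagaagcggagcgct
Pcdh20: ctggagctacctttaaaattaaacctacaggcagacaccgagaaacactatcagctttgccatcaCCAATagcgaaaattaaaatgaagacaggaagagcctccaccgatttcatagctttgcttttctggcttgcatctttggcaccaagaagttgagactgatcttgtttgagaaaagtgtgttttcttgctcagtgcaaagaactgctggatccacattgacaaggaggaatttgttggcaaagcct
The stretch before Pcdh18 had 72.1% G and C and 19 CpG, that before Pcdh10 63.2% and 22 CpG, and that before Pcdh20 42.4% and 3 CpG. Pcdh10 and Pcdh20 each hold a single CCAAT match on either strand and the Pcdh18 stretch holds none. Among all 32851 RefSeq windows of 250 bases before a start, 33.8% hold CCAAT on either strand, as do 15 of 25 windows of the 22 members that matched by symbol. Pcdh18 is counted among the 15 through its 67 bases that lie inside the annotated gene and are not printed. GGATTA (or TAATCC), the core site of homeodomain proteins of the OTX and CRX type, is in none of the 3 stretches, in 2 of the 25 windows and in 6.25% of all windows. These matches describe letters only.

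Pcdh18 had 133, 143 and 144 CPM after Crxos, 141, 125 and 143 after Oboxa1, 131, 127 and 119 after Oboxa4 and 120.2, 126 and 109 after Oboxa7, against 91.3, 79.3 and 86.4 CPM in Control. No transfected library overlapped Control, and libraries of the set of 5 did not stand apart. Its log2 fold changes were 0.71, 0.67, 0.55 and 0.47 (standard error 0.07, adjusted p = 0.000108, 0.000295, 0.000513 and 0.00307, edgeR), which is 1.64-fold after Crxos and 1.38-fold after Oboxa7. Within sets they were 0.62, 0.67, 0.60 and 0.52.

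Pcdh10 had 9.62, 12.1 and 13.5 CPM after Crxos, 32.1, 33.7 and 9.34 after Oboxa1, 35.2, 26.9 and 33.3 after Oboxa4 and 29.8, 25.7 and 28.3 after Oboxa7, against 11.8, 40.5 and 45 CPM in Control. The 5 low values are those of the set of 5. The call after Crxos (log2 fold change −1.47, adjusted p = 0.0323, edgeR) was not kept within the set (−0.01, adjusted p = 0.981), nor without any 1 Crxos library or Control replicate 2 or 3 (log2 fold changes between −1.87 and −1.16), nor with only Crxos and Control in the model. Within sets Pcdh10 was called lower after Oboxa1, Oboxa4 and Oboxa7, at −0.36, −0.43 and −0.61 (adjusted p = 0.0167, 0.00539 and 0.000699, edgeR). Pcdh19, known in humans as a gene of female-limited epilepsy, passed the test in no comparison, with 211, 204 and 223 CPM after Crxos against 223, 235 and 247 CPM in Control (log2 fold change −0.14, adjusted p = 0.245, edgeR) and log2 fold changes of −0.10, −0.18 and −0.03 after the Obox genes. Pcdh17 was lower after Oboxa4, with 4.95, 4.21 and 4.27 CPM against 6.82, 5.83 and 6.68 CPM in Control (log2 fold change −0.53 ± 0.17, adjusted p = 0.0368, edgeR). That call was lost without Oboxa4 replicate 1, 2 or 3, Oboxa7 replicate 1, or Control replicate 1 or 3, at log2 fold changes between −0.59 and −0.48.

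Delta-1 protocadherins carry a motif in their tail that binds protein phosphatase 1. Pcdh7, on chromosome 5, 57716145 to 58133236, had 274, 238 and 244 CPM after Crxos, 274, 279.6 and 279 after Oboxa1, 314, 285 and 276 after Oboxa4 and 338, 318 and 339 after Oboxa7, against 303, 420.5 and 415 CPM in Control. All Crxos and Oboxa1 libraries were below Control, and Control replicate 1 lay among the Oboxa4 libraries and below the Oboxa7 libraries. The log2 fold changes were −0.59, −0.45 and −0.38 (adjusted p = 0.00161, 0.0133 and 0.0175, edgeR) and −0.19 after Oboxa7, not called (adjusted p = 0.244). Within sets they were −0.27, −0.44, −0.52 and −0.33, of which that of Crxos was under the fold limit. The Oboxa1 call was lost without Oboxa1 replicate 1 or Control replicate 2 or 3 (log2 fold changes between −0.59 and −0.37), and the Oboxa4 call without Oboxa4 replicate 2 or 3 or Control replicate 2 or 3 (between −0.52 and −0.30). Both were also lost with only the groups compared in the model (−0.44 and −0.38). Pcdh9 did not pass the test in any comparison, with 34.3, 33.4 and 35.7 CPM after Crxos against 38.4, 32.5 and 36.6 CPM in Control and log2 fold changes between −0.11 and −0.06 over the 4 comparisons. Pcdh11x, an X-linked gene, had 4.08, 5.19 and 5.26 CPM after Crxos against 3.7, 3 and 3.5 CPM in Control, a log2 fold change of 0.51 (adjusted p = 0.0214, edgeR) that was 0.39 and not called within the set, and that lost its call without Crxos replicate 2 or 3 or Control replicate 2 or 3 (between 0.43 and 0.62) and with only Crxos and Control in the model (0.51).

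The remaining non-clustered protocadherins were Pcdh20 and Pcdh15. Pcdh20 had 4.75, 3.64 and 3.32 CPM after Crxos, 11, 10.4 and 4.27 after Oboxa1, 13, 10.9 and 11.5 after Oboxa4 and 16.2, 15.4 and 19 after Oboxa7, against 7.36, 24.5 and 21.2 CPM in Control. As for Pcdh10, Oboxa1 replicate 3 and Control replicate 1 were low, but here the Crxos libraries were below Control replicate 1 as well. The log2 fold change after Crxos was −2.17 ± 0.39 (adjusted p = 0.00221, edgeR) and −0.91 within the set (adjusted p = 0.00202). After the Obox genes it was −1.04, −0.59 and −0.07, not called, and −0.99, −0.96 and −0.44 within sets, all called lower. Pcdh15, which forms the tip link of inner ear hair cells together with Cdh23, had 1.44, 1.55 and 1.01 CPM after Oboxa4 and 1.48, 1.12 and 1.35 after Oboxa7, against 2.11, 2.71 and 1.99 CPM in Control. It was called lower after Oboxa4 (log2 fold change −0.77, adjusted p = 0.0326, edgeR) and not after Oboxa7 (−0.78, adjusted p = 0.0538), 2 values that differ by less than their standard errors (0.24 and 0.24). The Oboxa4 call was lost without Oboxa4 replicate 1 or 3 or Control replicate 2 (log2 fold changes between −0.90 and −0.60) and with only Oboxa4 and Control in the model (−0.77). Within sets Pcdh15 was also called lower after Oboxa1 (−0.59) and Oboxa7 (−0.83).

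The clustered protocadherins lie in a row on chromosome 18 in the order alpha, beta, gamma. In the gamma cluster all 22 genes were tested and 3, 3, 11 and 2 were called higher after Crxos, Oboxa1, Oboxa4 and Oboxa7. Of all genes tested, 8.38%, 4.25%, 8.06% and 3.33% were called higher in the same order. No gamma gene was called lower at an adjusted p, and 0 were lower at an unadjusted p below 0.05 (edgeR). The log2 fold change was positive for 12, 21, 22 and 22 of the 22, with medians of 0.03, 0.26, 0.37 and 0.25. Within sets the medians were 0.22, 0.26, 0.27 and 0.15. After Oboxa1, Oboxa4 and Oboxa7, 6, 6 and 2 gamma genes were called higher within sets. Of all genes, 8.91%, 12.7% and 7.62% were called higher by the same fit. Summed over the 22 genes, the cluster had 366.6, 364.3 and 381.3 CPM after Crxos, 412.2, 397.5 and 413.1 after Oboxa1, 460.0, 396.4 and 393.8 after Oboxa4 and 411.4, 362.6 and 383.9 after Oboxa7, against 328.0, 362.0 and 354.2 CPM in Control. Every transfected library had a higher sum than every Control library, although Oboxa7 replicate 2 and Control replicate 2 were nearly equal. With Pcdhgc3 left out of the sum, the Crxos libraries had 155.5, 161.9 and 172.0 CPM and overlapped those of Control, with 137.2, 168.6 and 162.5 CPM. The genes share exons and the counting of reads in those exons is not given, so the genes cannot be taken as independent of each other.

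The last 2 genes of the row, Pcdhgc4 and Pcdhgc5, were called in all 4 comparisons. Pcdhgc5, on chromosome 18, 37819546 to 37841873, had 14.2, 15.7 and 16.5 CPM after Crxos, 17.6, 15.9 and 16.4 after Oboxa1, 17.2, 16 and 15.8 after Oboxa4 and 17.8, 16.4 and 15.2 after Oboxa7, against 10.1, 12 and 10.6 CPM in Control. Its log2 fold changes were 0.50, 0.61, 0.58 and 0.60 (standard error 0.09, adjusted p = 0.0018, 0.0014, 0.000956 and 0.00265, edgeR). Pcdhgc4, on chromosome 18, 37815079 to 37841873, was lower in level, with 1.87, 1.92 and 2.01 CPM after Crxos, 1.92, 1.96 and 1.85 after Oboxa1, 2.71, 2.13 and 2.07 after Oboxa4 and 2.72, 1.91 and 1.96 after Oboxa7, against 1.18, 0.971 and 0.867 CPM in Control. All values of both genes were above Control, whichever set the library belonged to. The log2 fold changes of Pcdhgc4 were 0.93, 0.92, 1.18 and 1.12 (standard error 0.18, adjusted p = 0.00336, 0.00754, 0.00104 and 0.00376, edgeR), and the Crxos value within the set was 0.70, not called (adjusted p = 0.086). With only Oboxa1 and Control in the model, the Oboxa1 calls of Pcdhgc4 (0.93) and Pcdhgc5 (0.62) were lost. Their neighbour Pcdhgc3, the most abundant gene of the cluster, had 211, 202 and 209 CPM after Crxos against 191, 193 and 192 CPM in Control and passed the test in no comparison (log2 fold changes 0.11, 0.19, 0.15 and 0.05).

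Among the A and B genes of the gamma cluster, Oboxa4 gave the other 9 calls, in Pcdhga2 to Pcdhga9 and Pcdhgb2, with log2 fold changes between 0.35 (Pcdhga7) and 0.53 (Pcdhga2). Pcdhga2 had 9.03, 8.01 and 7.32 CPM after Oboxa4 against 4.77, 6.21 and 5.91 CPM in Control (adjusted p = 0.0105, edgeR). Pcdhga3 had 13.8, 12 and 11.1 CPM after Oboxa4 against 7.86, 9.39 and 9.02 CPM in Control (log2 fold change 0.49, adjusted p = 0.0119, edgeR), and these 2 calls were kept without any 1 library. The calls of the remaining 7 were lost without Control replicate 1, which had the lowest summed level of the cluster, so that 4 of the 11 gamma genes stayed called. The 6 gamma genes called after Oboxa4 within sets were found in the set of 10, which leaves that library aside. Pcdhga8 was also called after Crxos, with 6.96, 7.46 and 8.12 CPM against 4.42, 5.59 and 4.66 CPM in Control (log2 fold change 0.62 ± 0.12, adjusted p = 0.00373, edgeR; 0.76 within the set, called). Pcdhga5 was also called after Oboxa1 (log2 fold change 0.37, adjusted p = 0.0493, edgeR), a call lost in 12 of the 15 fits that leave out a library (0.29 to 0.49).

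**Figure D4:**
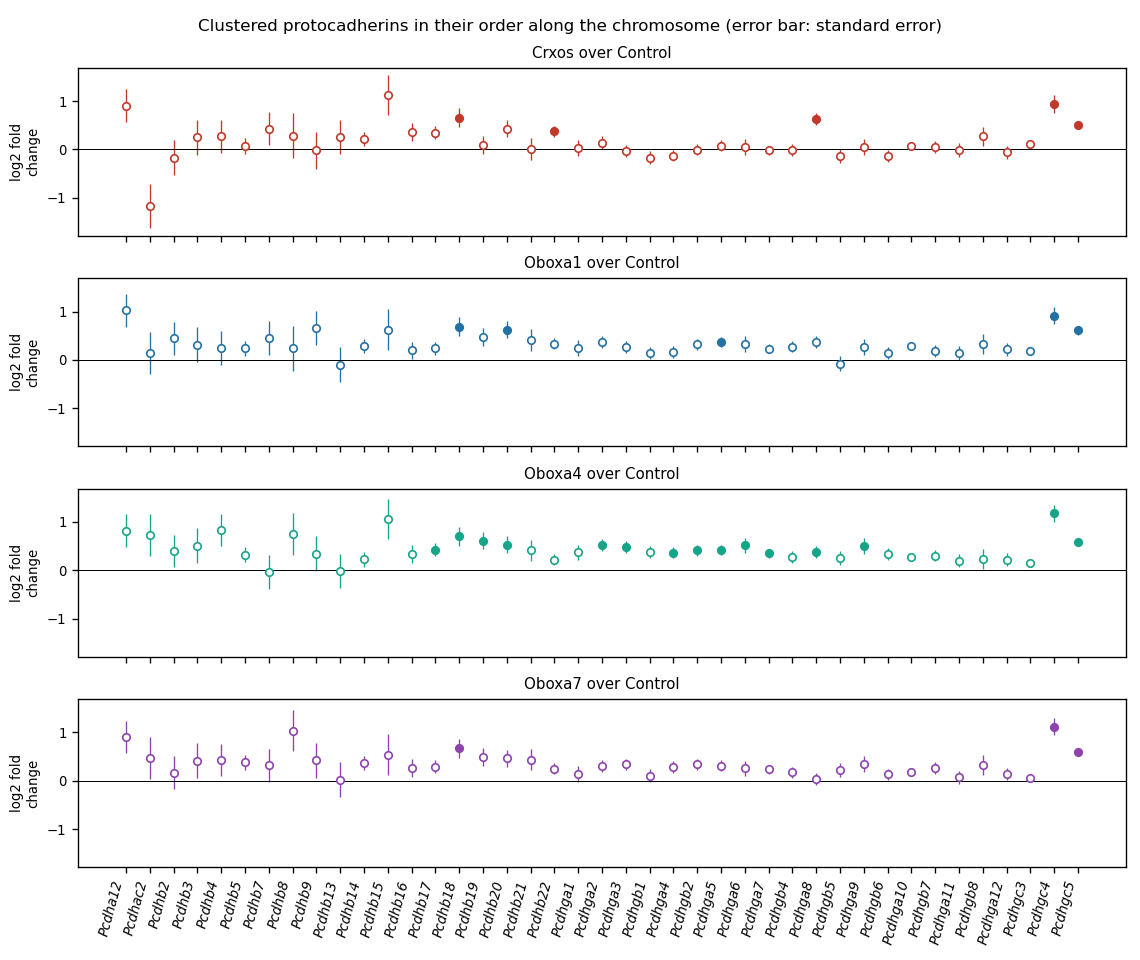
Log2 fold change against Control (points, with standard errors) of the tested clustered protocadherins in their order along the chromosome, a panel for each transfected gene; filled points are called. Pcdhgc4 and Pcdhgc5 at the right end are filled in all 4 panels, the run from Pcdhga2 to Pcdhga9 is mostly filled after Oboxa4, and after Crxos most gamma genes lie near 0 (median 0.03, and 0.22 within the set).

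Of the 17 tested beta genes, 2, 2, 4 and 1 were called higher after Crxos, Oboxa1, Oboxa4 and Oboxa7, where 8.38%, 4.25%, 8.06% and 3.33% of all genes were. None was lower at either an adjusted or an unadjusted p below 0.05 (edgeR). The median log2 fold changes of the beta genes were 0.27, 0.34, 0.41 and 0.41. Summed over all 22 beta genes the level was 33.7, 33.7 and 33.7 CPM after Crxos, 34.9, 32.9 and 35.8 after Oboxa1, 37.6, 36.5 and 33.0 after Oboxa4 and 34.0, 37.2 and 32.2 after Oboxa7, against 24.9, 28.1 and 27.9 CPM in Control. All transfected libraries were above all Control libraries. Pcdhb18, on chromosome 18, 37489465 to 37494503, was called after all 4 genes at about 2 CPM, with 2.01, 2.19 and 2.17 CPM after Crxos, 1.59, 2.13 and 2.81 after Oboxa1, 2.46, 2.1 and 2.02 after Oboxa4 and 2.38, 2.16 and 1.89 after Oboxa7, against 1.42, 1.29 and 1.32 CPM in Control. Its log2 fold changes were 0.66, 0.69, 0.70 and 0.67 (standard error 0.19, adjusted p = 0.0238, 0.0332, 0.0183 and 0.0422, edgeR). None of these 4 calls was kept without Control replicate 3 or without Control replicate 2, and that of Oboxa7 was lost in 12 of 15 such fits, while the log2 fold change stayed between 0.47 and 0.88 throughout. With only the groups compared in the model, the calls after Oboxa1 (0.70) and Oboxa7 (0.67) were lost. In the within-set fit the Pcdhb18 call after Crxos was lost, and those after the Obox genes were kept.

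Pcdhb22 was called after Crxos (7.58, 7.7 and 8.81 CPM against 6.01, 6.44 and 6.16 CPM in Control, log2 fold change 0.37, adjusted p = 0.0252, edgeR), and not called within the set (0.42, adjusted p = 0.0662). Pcdhb20 was called after Oboxa1 (0.62, adjusted p = 0.0358, edgeR) and Oboxa4 (0.53, adjusted p = 0.0436), with 2.17, 2.94 and 2.39 CPM and 2.11, 2.84 and 2.04 CPM, against 1.44, 1.65 and 1.77 CPM in Control. Pcdhb19 (0.61, adjusted p = 0.0269) and Pcdhb17 (0.43, adjusted p = 0.0367) were called after Oboxa4, with 3.27, 2.99 and 3.05 CPM and 6.61, 7.4 and 7.54 CPM, against 1.99, 2 and 2.09 and 4.74, 5.65 and 5.68 CPM in Control. These 5 calls were lost when Control replicate 2 or 3 was left out, and 4 of them, all but that of Pcdhb22, without Control replicate 1.

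In the alpha cluster, Pcdhac2 carried nearly all counts. It had 7.61, 7.81 and 7.4 CPM after Crxos, 24.4, 25.8 and 6.54 after Oboxa1, 31, 26.5 and 28.3 after Oboxa4 and 25.9, 22.6 and 23.1 after Oboxa7, against 6.24, 24.3 and 21.1 CPM in Control, the 5 low values again being the set of 5. Over all libraries it was not called in any comparison (log2 fold changes −1.17, 0.14, 0.73 and 0.47, adjusted p = 0.0782, 0.869, 0.239 and 0.528, edgeR). It was called lower after Crxos when Oboxa1 replicate 3 or Control replicate 1 was left out, and higher after Oboxa4 within sets (0.33, adjusted p = 0.00497). The other 16 alpha rows together reached 0.822 to 1.14 CPM after Crxos, 0.685 to 1.12 after Oboxa1, 0.659 to 1.09 after Oboxa4 and 0.851 to 1.06 after Oboxa7, against 0.546 to 0.664 CPM in Control.

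In 9 of the 68 genes, values did not overlap between the set of 5 and the set of 10. Of these, 3 were higher in the set of 5 (4.41% of members, where 7.56% of all genes had no overlap in that direction), namely Cdh10 (11.3 to 18.7 against 3.69 to 7.3 CPM), Cdh15 (0.839 to 1.38 against 0.321 to 0.823 CPM) and Pcdh1 (3.22 to 6.12 against 1.49 to 2.47 CPM). The other 6 were lower (8.82% of members, where 9.22% of all genes had no overlap in that direction). Besides Cdh12 these were Cdh26 (0.638 to 1.36 against 2.06 to 4.01 CPM), Cdh13 (50.3 to 61.6 against 101 to 129 CPM), Pcdh10 (9.34 to 13.5 against 25.7 to 45 CPM), Pcdh20 (3.32 to 7.36 against 10.4 to 24.5 CPM) and Pcdhac2 (6.24 to 7.81 against 21.1 to 31 CPM). Neither share was above that of all genes, and from counts of 3 and 6 genes no difference from all genes can be read. Cdh10, a type II cadherin of brain, was called in no comparison over all libraries, and within sets it was called higher after Oboxa1, Oboxa4 and Oboxa7, at 0.57, 0.46 and 0.60, and not after Crxos (0.27). The split was made from the expression values themselves, so these ranges are a description. All 39 tested beta and gamma genes overlapped between the sets.

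**Figure D5:**
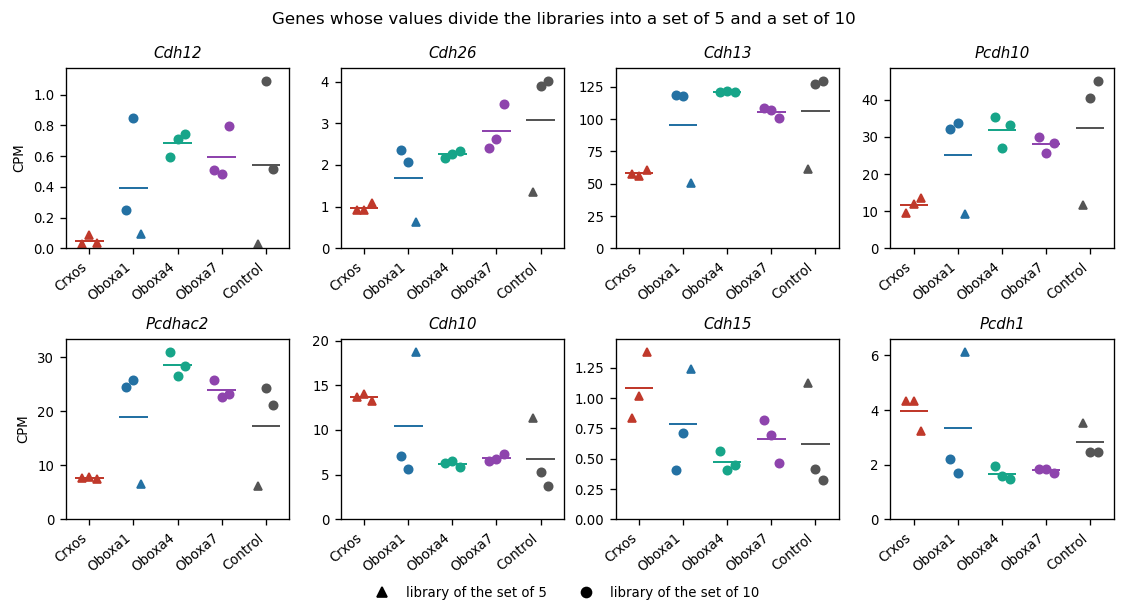
CPM in each library of 8 genes whose values do not overlap between the set of 5 libraries (triangles) and the set of 10 (circles), with horizontal lines at the means of 3 libraries and the transfected genes left of Control. Oboxa1 replicate 3 and Control replicate 1 lie with the Crxos libraries in each panel, so the means of Oboxa1 and Control fall between 2 levels.

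Among the 3 Obox genes, compared pairwise, 0 of the 68 members were called in any pair by edgeR's quasi-likelihood test, and 0 by DESeq2. Few genes of any kind were called by edgeR in the fit over all libraries. The shares of all genes were 0.0285% between Oboxa1 and Oboxa4, 0.121% between Oboxa1 and Oboxa7 and 0.186% between Oboxa4 and Oboxa7. At an unadjusted p below 0.05 (edgeR), 771 of all 14012 genes were higher and 530 lower in Oboxa1 against Oboxa4. The counts were 817 and 676 in Oboxa1 against Oboxa7, and 725 and 761 in Oboxa4 against Oboxa7. Of the 68 members, 3 were higher and 2 lower, 7 and 2, and 3 and 2, in the same order. The most different was Cdh23, a component of the hair cell tip link, with 1.44, 0.963 and 1.35 CPM after Oboxa4 against 2.38, 2.19 and 2.08 CPM after Oboxa7 (log2 fold change −0.83 ± 0.22, adjusted p = 0.178, edgeR), a gene named after its values were seen. With conditions compared within sets, Cdh23 (log2 fold change −0.84) and Pcdh20 were called lower and Cdh24 higher in Oboxa4 than in Oboxa7. Pcdh20 was also called lower in Oboxa1 than in Oboxa7. Of all 14012 genes, the within-set fit called 267 higher and 227 lower in Oboxa4 than in Oboxa7. It called 99 higher and 146 lower in Oboxa1 than in Oboxa7, and 4 and 5 in Oboxa1 against Oboxa4. Over all libraries, a difference in which members passed the test against Control thus does not show that the Obox genes differ in their effect. Crxos was not compared directly with the Obox genes here.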

How the data were processed

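The deposited table holds raw read counts per gene for 15 libraries, with gene lengths. The authors sequenced poly(A) RNA in paired-end mode, used STAR for alignment to mm10, and obtained the counts of protein-coding genes from featureCounts (for both, version and settings are not given in the sources here). Here, counts were tested with edgeR 4.0.16 (R 4.3.3; quasi-likelihood test, TMM scaling, filterByExpr, prior count 0.125) in a single model of 15 libraries with 5 conditions, and p-values were adjusted over all 14012 genes tested. CPM use TMM-scaled library sizes. Named were all members called against Control, the 10 with the highest mean RPKM and 7 cadherins that mark cell types. Members and lists were chosen with earlier results of these data known. Alternatives were the edgeR test with relative log expression scaling in place of TMM, and the Wald test of DESeq2 1.42.0. The others were no count filter, a filter of 1 CPM in 3 libraries, only the groups compared, a replicate block, the within-set fit and leaving out each library. In the within-set fit of Crxos, Control replicate 1 is alone and was assumed to vary like the other groups. The test was run on simulated counts that held no split into sets, which says nothing of its behaviour under the split found here. Gene symbols of 93 of 96 members matched the RefSeq annotation of GRCm38.p6.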

Additional observations from a re-analysis of the deposited data

How the results depend on the processing

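Of the 58 calls of a member against Control, 20 were kept under every alternative and 26 without any 1 library. Relative to the counts of the report, the within-set fit gave 6 higher and 4 lower after Crxos, 15 higher and 8 lower after Oboxa1, 11 lower after Oboxa4 and 7 lower after Oboxa7, with 1 member called between Oboxa1 and Oboxa7 and 3 between Oboxa4 and Oboxa7. It turned the sign of Cdh12 after Crxos (log2 fold change 0.72), which rests on 1 to 3 counts per library. With only the groups compared in the model, 6 were lower after Crxos, 1 higher and 0 lower after Oboxa1, 10 higher and 3 lower after Oboxa4, and 2 members differed between Oboxa4 and Oboxa7. DESeq2's Wald test called 2 lower after Oboxa7 and the filter of 1 CPM called 0. Same-numbered libraries correlated at −0.49 to 0.44, with 3 of 30 pairs over 0.1, so no pairing by number was seen across all conditions. Both extremes are pairs of Oboxa1 with Control, the conditions divided between the sets. Between Oboxa4 and Oboxa7, same-numbered libraries correlated at 0.16, 0.19 and 0.09, and differently numbered ones at −0.21 to 0.07. Whether these were paired was not tested. With the replicate number as a block, 45 of the 58 calls were kept (those lost were Cdh4, Cdh13 and Pcdh10 after Crxos, Cdh2, Pcdhb18 and Pcdhga5 after Oboxa1, Pcdh15, Pcdh17, Pcdhga4, Pcdhga6, Pcdhga8 and Pcdhga9 after Oboxa4, and Pcdhb18 after Oboxa7), and the counts higher and lower were 10 and 7 after Crxos, 5 and 1 after Oboxa1, 14 and 3 after Oboxa4, and 4 and 1 after Oboxa7, with 0 between Obox genes. Leaving out a library in turn gave 6 to 13 higher and 5 to 11 lower after Crxos, 5 to 10 and 0 to 5 after Oboxa1, 7 to 21 and 2 to 7 after Oboxa4, and 3 to 6 and 0 to 3 after Oboxa7, and 0 in each Obox pair. Without Control replicate 1 the counts were 13 and 11, 8 and 5, 8 and 7, and 4 and 2 in the same order. Without Oboxa4 replicate 1, 7 were higher and 3 lower after Oboxa4. Without Control replicate 2 or 3, 0 were lower after Oboxa1. The causes were not tested. Of the 28 untested members, at most 16 counts per library left differences not detectable at this depth.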

Other observations

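The lists of genes around the cadherins were chosen with earlier results of these data known, and their calls use edgeR's quasi-likelihood test with p-values adjusted over all genes tested, where 8.38%, 4.25%, 8.06% and 3.33% of all genes were called higher and 8.4%, 3.28%, 5.83% and 2.34% lower after Crxos, Oboxa1, Oboxa4 and Oboxa7. Of 19 tested catenins and junction adaptors, 2 were higher and 5 lower after Crxos, 1 and 0 after Oboxa1, 1 and 1 after Oboxa4, and 2 and 0 after Oboxa7. Within the set of 5, 1 was higher and 2 lower after Crxos. Ctnna2, the α-catenin of neurons, was called higher after all 4 genes, with 9.95, 10.5 and 7.99 CPM after Crxos, 9.10, 7.13 and 8.96 after Oboxa1, 5.83, 7.50 and 7.24 after Oboxa4 and 5.73, 5.53 and 4.60 after Oboxa7, against 4.25, 3.41 and 2.70 CPM in Control. No transfected library overlapped Control. The log2 fold changes were 1.45, 1.28, 0.99 and 0.61 (adjusted p = 0.000247, 0.00103, 0.00212 and 0.0453, edgeR). Ctnnal1, an α-catenin relative, was lower after Crxos (−1.55, adjusted p = 0.0152, edgeR) and was low in all 5 libraries of the set of 5, Control replicate 1 included (8.64 to 13.5 CPM, against 30.3 to 42.6 CPM in the set of 10). Within the set it was called lower at −0.51.

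Of 18 tested genes of the wider cadherin superfamily, 1 was higher and 2 lower after Crxos, 2 and 0 after Oboxa1, 3 and 3 after Oboxa4, and 1 and 0 after Oboxa7. Fat2, a giant protocadherin of cerebellum, was called higher after Oboxa1, Oboxa4 and Oboxa7 (log2 fold changes 1.65, 2.17 and 1.65, adjusted p = 0.0298, 0.00355 and 0.0333, edgeR), at no more than 24 counts in a library, of which the Oboxa7 value was not called within the set (1.46, adjusted p = 0.0553). Dchs1, the ligand of Fat4 in planar cell polarity, was higher after Oboxa1 (0.42) and Oboxa4 (0.54), and after Crxos within the set (0.60). Fat4 was called after Oboxa4 over all libraries (1.39), but its level was split by set (83.8 to 116 CPM in the set of 5, against 217 to 549 CPM in the set of 10), and within sets it was called higher after Oboxa1, Oboxa4 and Oboxa7 (0.67, 1.05 and 0.85).

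Of 14 proteases that include those known to cleave cadherins, 2 were higher and 0 lower after Crxos, 2 and 1 after Oboxa1, 2 and 1 after Oboxa4, and 1 and 1 after Oboxa7. Mmp2 was higher after all 4 genes (log2 fold changes 0.55, 0.51, 0.58 and 0.37), and the stromelysin Mmp3 was lower after the Obox genes (−1.12, −1.35 and −1.41). Of 10 tested transcription factors known from cadherin switching, 2 were higher and 1 lower after Crxos, 1 and 0 after Oboxa1, 1 and 0 after Oboxa4, and 0 and 0 after Oboxa7 (0 and 0 also at an unadjusted p below 0.05, edgeR). Snai2, a repressor of Cdh1, was higher after Crxos (0.33), Oboxa1 (0.40) and Oboxa4 (0.45), of which the Crxos value was 0.12 within the set and not called (adjusted p = 0.374, edgeR). Of 14 tested chromatin regulators of the clustered protocadherins, such as CTCF and cohesin, 0 were higher and 2 lower after Crxos, namely the cohesin subunits Rad21 (−0.34) and Smc1a (−0.33), neither of which was called within the set (−0.22 and −0.18, adjusted p = 0.0599 and 0.0834, edgeR). None was called after an Obox gene by edgeR, where 4, 2 and 1 of the 14 had an unadjusted p below 0.05, all lower, after Oboxa1, Oboxa4 and Oboxa7. Of all 14012 genes tested, 2050, 2673 and 1933 were lower at that unadjusted p in the same order.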
